A study of Drosophila melanogaster with 3 samples.

Results

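The regions described here are peaks of foxo binding that lie upstream of a promoter reading away from them on a single strand. A peak was a member when its summit lay within 1000 bp of protein-coding transcription start sites (TSSs) of 1 strand only and upstream of the nearest of them. The rule found 2151 members among the 9766 peaks of the authors' optimal list on the main chromosome arms, or 22.0% (Wilson 95% interval 21.2 to 22.9, counting error only). A further 904 peaks lay downstream of the nearest TSS of such a promoter, 1521 had TSSs of both strands within 1000 bp and are called divergent here, and 5190 had no protein-coding TSS in that range. The rule used position only and did not use signal or motifs, but it limits the nearest genes to those with a TSS of this kind.

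Binding of foxo in Drosophila melanogaster was mapped by chromatin immunoprecipitation and sequencing (ChIP-seq) in 3 biological replicates, which form 1 group. Each replicate was made from whole larvae of the third instar at the wandering stage, with males and females pooled, of the strain foxo-MiMIC-GFP. In this strain an eGFP exon placed in an intron of foxo makes the endogenous gene produce a foxo-eGFP fusion, and the fusion was precipitated with an antibody against GFP after sonication to fragments of 200 to 800 bp. All 3 replicates carry the same insertion, and neither an input library nor untagged larvae were analysed here, so foxo binding and other sources of signal cannot be told apart. Whole larvae mix all tissues, and a peak in few cells cannot be told apart from a weak peak in many. Each replicate came as a list of 30000 ranked regions, and sequencing depth is unknown from such lists. The signal of a peak is the authors' own value, used here only to rank peaks within a list.

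Foxo is a forkhead transcription factor that the insulin pathway holds in the cytoplasm while nutrients are plentiful and that enters the nucleus when insulin signalling falls. In fly larvae it is known to activate genes of growth restraint, stress resistance and metabolism. Promoters of Drosophila fall broadly into developmental ones, often with a TATA box, an initiator or GAGA repeats, and housekeeping ones, often with the DNA replication-related element (DRE), the motif Ohler 1 or the motif Ohler 7. The DRE is bound by the factor Dref, Ohler 1 by M1BP and GAGA repeats by the GAGA factor Trl.

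Sequences of members are shown first, because the results below turn on how strong peaks differ from peaks over housekeeping elements. Each is read from the Release 6 reference genome, which is the dm6 assembly, in the direction of its gene, and each lies between genes, outside every annotated exon. All printed sequences were taken from the arms 2L, 3L, 3R, 4 and X and from windows free of exons, so stronger members outside these limits are not shown. The first 3 are the strongest members within these limits. Capitals mark the 11 bases centred on the summit. For CG14100 (chr3L:19590525-19590752, minus strand) and Hsp27 (chr3L:9383794-9384034, plus strand) the summit lay 108 bp and 149 bp upstream of the TSS, and for CG18549 (chr3R:12449053-12449293, plus strand) it lay 123 bp upstream.
CG14100: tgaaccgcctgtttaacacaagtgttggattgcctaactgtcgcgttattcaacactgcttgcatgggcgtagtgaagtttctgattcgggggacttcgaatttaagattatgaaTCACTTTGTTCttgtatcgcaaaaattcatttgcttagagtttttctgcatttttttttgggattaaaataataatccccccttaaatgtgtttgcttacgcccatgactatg
Hsp27: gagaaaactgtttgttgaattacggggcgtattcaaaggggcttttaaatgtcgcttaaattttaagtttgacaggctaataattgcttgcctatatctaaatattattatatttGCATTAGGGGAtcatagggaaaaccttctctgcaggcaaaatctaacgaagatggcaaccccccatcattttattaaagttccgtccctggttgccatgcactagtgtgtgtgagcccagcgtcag
CG18549: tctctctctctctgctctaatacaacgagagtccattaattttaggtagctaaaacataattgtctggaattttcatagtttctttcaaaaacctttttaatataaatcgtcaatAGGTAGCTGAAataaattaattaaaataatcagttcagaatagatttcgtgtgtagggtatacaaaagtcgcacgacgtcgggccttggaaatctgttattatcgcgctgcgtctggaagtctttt
None of these stretches had a DRE, an Ohler 1 motif or a forkhead core within 100 bp of its summit. The GC content of the 3 stretches was 38.2%, 40.2% and 34.4%.

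The next 4 sequences are the members within the same limits with the highest signal that had a DRE or an Ohler 1 motif within 100 bp of the summit. The DRE was searched as TATCGATA, which reads the same on both strands, and Ohler 1 as GGTCACAC or its complement GTGTGACC. Capitals mark the motif. Jwa (chr2L:18705706-18705926, minus strand) and htk (chrX:18843438-18843658, plus strand) carry the DRE, and CG43163 (chr3L:8507185-8507405, minus strand) and muc (chr2L:7426562-7426782, plus strand) carry Ohler 1.
Jwa: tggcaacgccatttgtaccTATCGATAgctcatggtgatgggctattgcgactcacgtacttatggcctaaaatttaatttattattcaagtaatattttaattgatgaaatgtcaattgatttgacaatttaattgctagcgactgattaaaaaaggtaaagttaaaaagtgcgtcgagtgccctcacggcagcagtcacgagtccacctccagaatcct
htk: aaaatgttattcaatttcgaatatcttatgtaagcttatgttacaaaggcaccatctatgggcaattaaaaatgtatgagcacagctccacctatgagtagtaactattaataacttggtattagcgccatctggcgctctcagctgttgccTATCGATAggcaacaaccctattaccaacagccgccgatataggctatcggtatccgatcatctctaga
CG43163: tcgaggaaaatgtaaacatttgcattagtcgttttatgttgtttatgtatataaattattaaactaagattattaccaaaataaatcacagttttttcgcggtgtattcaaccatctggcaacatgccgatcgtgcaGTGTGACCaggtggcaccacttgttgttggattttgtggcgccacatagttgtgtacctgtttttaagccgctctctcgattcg
muc: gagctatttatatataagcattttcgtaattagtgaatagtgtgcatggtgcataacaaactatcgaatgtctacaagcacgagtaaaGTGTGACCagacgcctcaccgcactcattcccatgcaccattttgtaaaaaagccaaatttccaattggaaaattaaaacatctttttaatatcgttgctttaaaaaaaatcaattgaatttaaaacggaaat
The strongest DRE member within these limits, Jwa, had a signal of 2313 and ranked 184, 152 and 283 in replicates 1, 2 and 3. The strongest Ohler 1 member within them, CG43163, had a signal of 524, ranked 2633 and 3044 in replicates 1 and 3, and had no region within 100 bp in the list of replicate 2. Windows free of exons leave out most members close to the TSS, while DRE and Ohler 1 members lay at medians of 73.0 bp and 59.0 bp. These 4 are therefore not typical of them, and RpL27, with Ohler 1 at a member 20 bp upstream, had a higher signal of 579.

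A forkhead factor such as foxo binds a core searched here on both strands in 4 forms. They are GTAAACA, its variant GTAAATA, a further form ATAAACA and the last form ATAAATA. The first of these alone is the site that foxo prefers, so the search for the core includes the search for the preferred site. Within the same limits of arm and exons, the strongest members with that site were by (blistery), the gene of the focal adhesion protein tensin (chr3R:9533177-9533397, minus strand), and Acsf2 (chr2L:5342473-5342693, minus strand). Capitals mark the site, which stands in both as its complement.
by: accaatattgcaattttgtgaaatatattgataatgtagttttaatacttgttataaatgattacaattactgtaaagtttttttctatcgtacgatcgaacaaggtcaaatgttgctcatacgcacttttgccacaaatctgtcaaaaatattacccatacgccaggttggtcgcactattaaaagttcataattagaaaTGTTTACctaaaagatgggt
Acsf2: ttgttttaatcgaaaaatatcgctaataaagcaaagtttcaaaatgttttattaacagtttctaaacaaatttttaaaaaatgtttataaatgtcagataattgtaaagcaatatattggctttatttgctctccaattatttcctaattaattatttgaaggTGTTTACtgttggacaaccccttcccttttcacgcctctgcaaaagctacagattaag
The member of by had a signal of 2352 and ranked 238, 216 and 68 in replicates 1, 2 and 3, and that of Acsf2 had 1537 and ranked 432, 453 and 682. Members with a GAGA repeat, searched as GAGAGAG or CTCTCTC, were chosen after their values were seen. The strongest within the same limits lay upstream of CG1907 (chr3R:29618795-29619015, plus strand) and Kal1 (chr3R:24141120-24141340, plus strand), and capitals mark the repeat.
CG1907: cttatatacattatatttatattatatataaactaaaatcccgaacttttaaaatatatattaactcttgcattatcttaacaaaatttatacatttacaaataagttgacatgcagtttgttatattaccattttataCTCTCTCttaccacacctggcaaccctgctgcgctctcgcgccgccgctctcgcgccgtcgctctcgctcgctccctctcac
Kal1: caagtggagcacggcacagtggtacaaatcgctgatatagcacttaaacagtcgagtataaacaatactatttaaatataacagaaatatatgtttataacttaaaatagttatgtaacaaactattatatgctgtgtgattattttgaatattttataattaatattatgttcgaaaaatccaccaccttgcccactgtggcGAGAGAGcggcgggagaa
In both, the repeat stood between the summit and the gene. The summits of CG1907 and Kal1 lay 160 bp and 165 bp upstream of the TSS, with signals of 2719 and 2368.

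Members crowded the last 250 bp before the TSS. The median summit lay 229 bp upstream, and 54.3% of the members lay within 250 bp. Density was 518 members per 100 bp of distance in the first 50 bp, 436 in the 50 bp that end at 250 bp, 181 from 351 to 500 bp and 54.4 from 751 to 1000 bp. In the replicates' own lists of their 9766 strongest regions, the median summit lay 206, 241 and 243 bp upstream (230 ± 20.8, SD, n = 3). Of all summits at one-strand promoters, 70.4% lay upstream of the TSS (68.8 to 72.0), and the replicates gave 68.6%, 71.5% and 66.7%. The replicates differed most next to the TSS. Replicate 1 placed 332 summits in the first 50 bp, where replicate 2 placed 192 and replicate 3 placed 241.

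**Figure D1:**
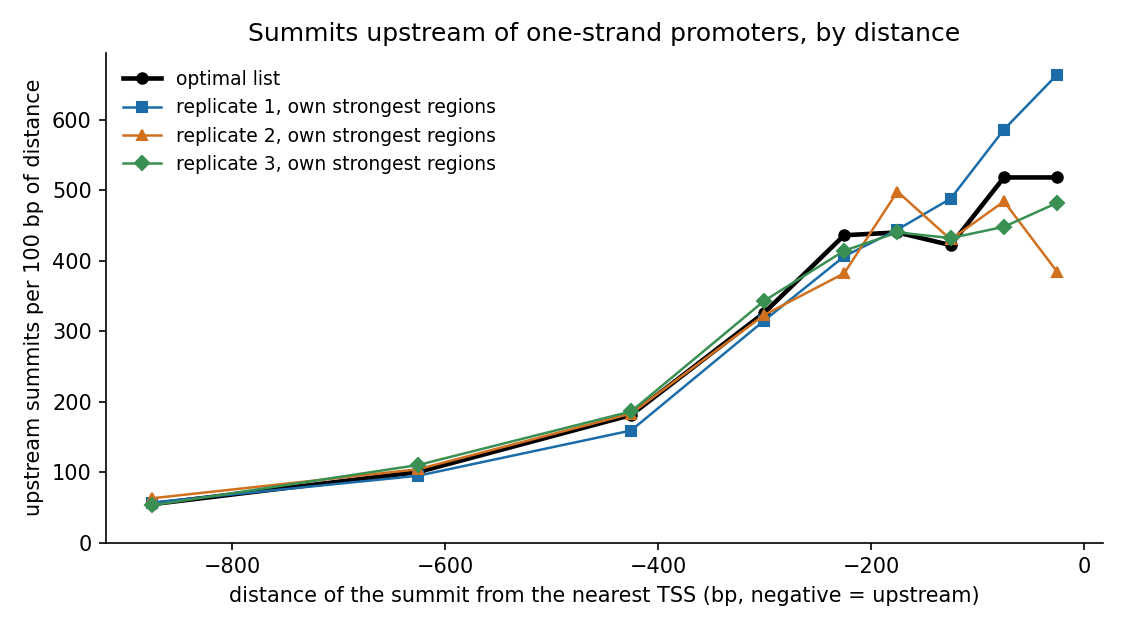
Upstream summits per 100 bp of distance (y axis) against the distance of the summit from the nearest TSS in bp (x axis), for the optimal list and for the 9766 strongest regions of each replicate. All 4 lists fall from the last 250 bp before the TSS outwards, and replicate 1 stands above the other two in the first 50 bp (332 summits against 192 and 241).

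Values at the edge of the rule were as follows. From 901 to 1000 bp upstream there were 53 members with a median signal of 347, of which 71.7% were found in all 3 replicates. From 1001 to 1100 bp there were 56 peaks with a median signal of 312, of which 73.2% were. Some members were not separate regions. Of the 2151 members, 136 shared their deposited interval with another member, and the members filled 2082 distinct intervals.

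Members were stronger than peaks downstream of one-strand promoters and weaker than peaks at divergent promoters. In the optimal list the median signal was 364 for members (range 151 to 9559), 279.6 for downstream peaks, 433 for divergent peaks and 286 away from promoters. The peaks of the classes overlapped widely, with quartiles of 231 to 654 for members and 198 to 507 for downstream peaks. The median signal percentile within the replicates' own lists was 55.7, 56.0 and 55.1 for upstream peaks of replicates 1, 2 and 3, and 41.1, 45.8 and 40.3 for downstream peaks. Upstream peaks had the higher median in 3 of 3 replicates, and the replicate medians of these classes did not overlap. The difference was 13.2 percentile points ± 2.61 (SD, n = 3; two-sided exact sign-flip test, p = 0.25, adjusted p = 0.375). Divergent peaks stood at 63.7, 65.3 and 58.9, so upstream peaks were lower in 3 of 3 replicates, with a difference of -7.04 points on average (exact p = 0.25, adjusted p = 0.375). With 3 replicates the exact test cannot go below 0.25, so none of the 18 comparisons made in this way could pass an adjusted threshold, and the adjustment is Benjamini-Hochberg over these 18.

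**Figure D2:**
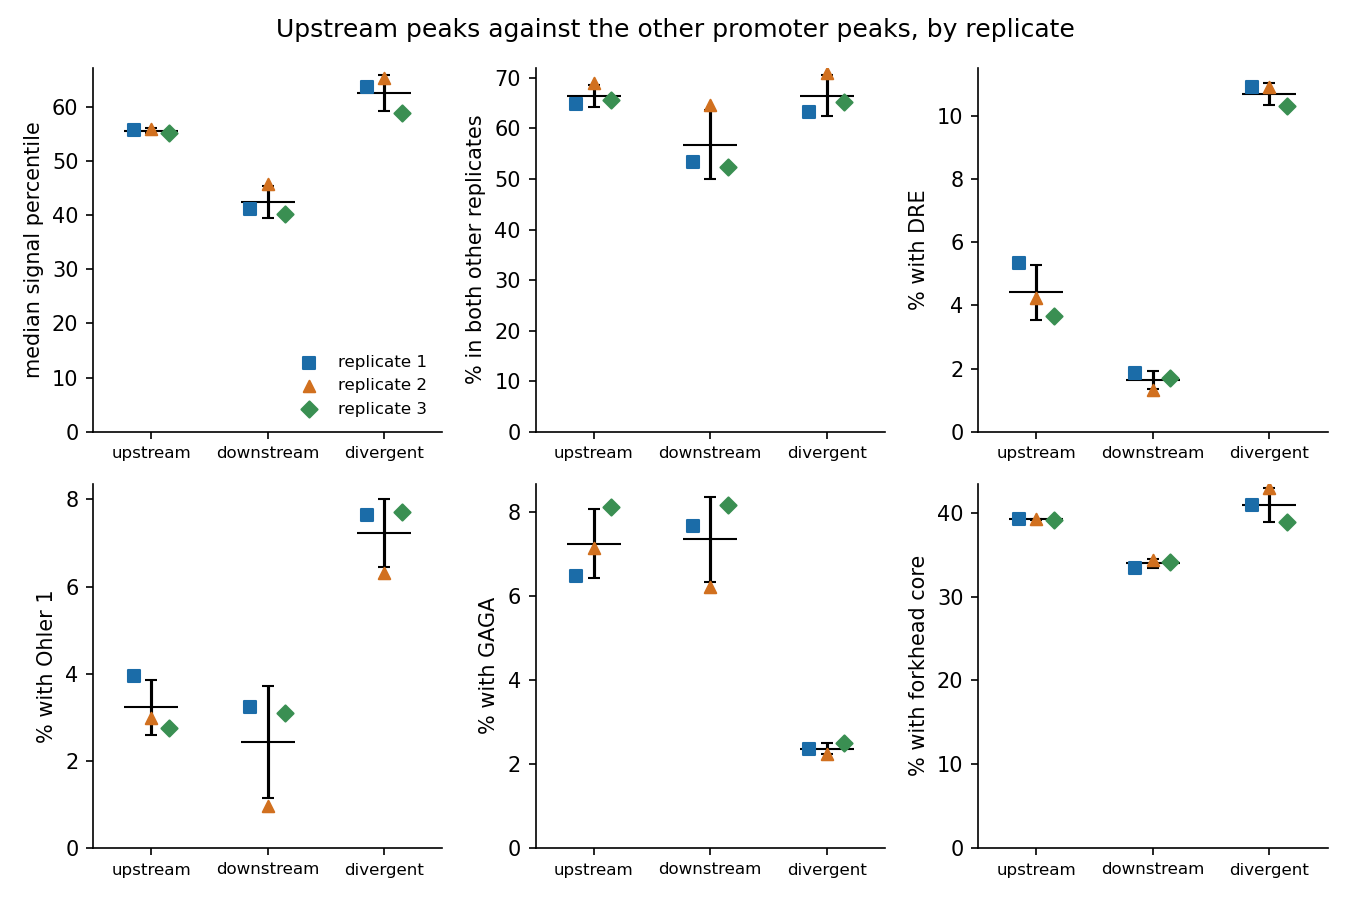
Values of each replicate's own 9766 strongest regions, split into peaks upstream and downstream of one-strand promoters and divergent peaks (x axis), for 6 measures (y axes, in percentile or percent). Points are replicates, and bars are the mean ± SD over 3 replicates. Upstream peaks lie between the other classes in signal percentile (mean 55.6 against 42.4 and 62.6) and in the share with a DRE (mean 4.41% against 1.62% and 10.7%).

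Most members were found again in each replicate. Of the 2151 members, 1450 (67.4%, 65.4 to 69.4) had a summit within 100 bp among the 9766 strongest regions of all 3 replicates, against 58.7% of downstream peaks and 68.9% of divergent peaks. The authors built the optimal list from the same libraries, and some of this recurrence follows from that. A further 468 members were found in exactly 2 replicates, 217 in exactly 1 and 16 in none. The share found in all 3 fell from 96.5% in the strongest 430 members to 10.7% in the weakest 431, which lie next to the end of the lists. In the replicates' own lists, 66.5% ± 2.15 of upstream peaks and 56.7% ± 6.86 of downstream peaks recurred in both other replicates (SD, n = 3; higher in 3 of 3, exact p = 0.25, adjusted p = 0.375). Signal ranked the members alike in each pair of replicates, with Spearman's rho of 0.855, 0.809 and 0.832 over 1918 to 1970 members, a description of peaks that share these libraries.

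The 25 strongest members found in all 3 replicates had signals of 3326 to 9559 and ranked 77 or better in every replicate, and 19 of them lay within 250 bp of the TSS. The strongest, upstream of CG14100, had a signal of 9559 in the optimal list and ranked 2, 3 and 4 in replicates 1, 2 and 3. The member of CG1888 (signal 7593, 239 bp upstream) ranked 6, 5 and 6. Some of the other genes are described with their known roles. Lk6, a kinase that phosphorylates the cap-binding factor eIF4E, had a member of 6251 that ranked 14, 11 and 7 and lay in an intron, 969 bp upstream of a TSS of the same gene. The member of larp, the gene of an RNA-binding protein of the La-related family, had a signal of 4930.0 and ranked 31, 27 and 29. That of eIF6, a factor that keeps the large ribosomal subunit free, had 4188 and ranked 47, 41 and 64, and of the 25 it alone had a DRE. Its summit lay in an exon of another gene. REPTOR, a transcription factor that the TOR complex holds back, had 3326 and ranked 63, 77 and 65.

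Hsp27, a small heat shock protein, had a signal of 5397 and ranked 25, 18 and 18 in replicates 1, 2 and 3. Gapdh2, an enzyme of glycolysis, had 4647 and ranked 35, 44 and 33, and Lpin, the phosphatidate phosphatase of lipid storage, had 3535 and ranked 66, 65 and 55. In the ranks of all 3 replicates these members therefore stayed among the first 77 regions. The member of ph-p, a subunit of Polycomb repressive complex 1, had 5200.4 and ranked 18, 14 and 43. The neighbouring gene ph-d is a near copy of ph-p, so the assignment of signal to ph-p is uncertain. Sox14, an ecdysone-induced transcription factor, had 5003 and ranked 33, 23 and 28, and HmgZ, a chromatin protein of the HMG class, had 4595 and ranked 46, 39 and 22. The other genes were CG18549, Fkbp14, Tina-1, MFS10, Trp1, CG13921, Hpf1, gish, CG1607, CG31145, Reg-5, chif and nebu, with signals of 3330.0 to 4912. Of the 25, 9 had a forkhead core within 100 bp of the summit, 1 had a DRE and none had Ohler 1. Over all members these stood at 39.2%, 4.70% and 3.35%, so the counts in 25 members do not set them apart from the rest.

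**Figure D3:**
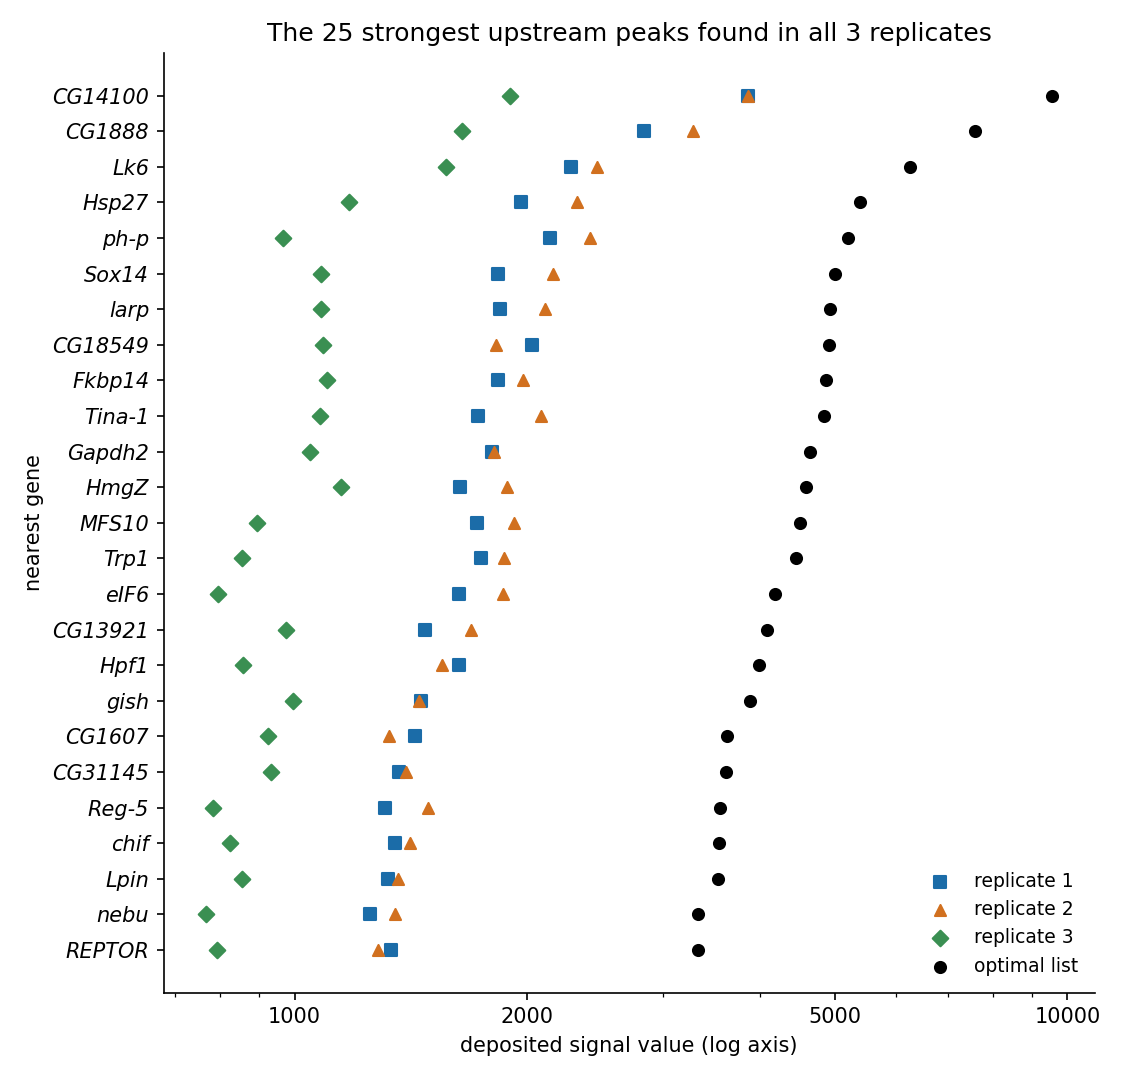
Deposited signal value (x axis, log axis) of the 25 strongest members found in all 3 replicates, by nearest gene (y axis), in each replicate and in the optimal list. The scale of the signal differs between lists, replicate 3 being the lowest for every gene. Within each list the order is similar, and every member ranked 77 or better in every replicate.

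Of the 295 members in the first 1000 ranks of the optimal list, 290 had a region in all 3 full lists and 5 had none within 100 bp in at least 1 of them. Over the 290, the highest and the lowest rank differed by a median ratio of 1.49, by more than 3 for 20 members and by more than 10 for 1 member. That member, 106 bp upstream of bowl, a zinc finger gene, had a signal of 1530.2 and ranked 622, 1100 and 7597 in replicates 1, 2 and 3. A second summit of bowl in the same interval, 307 bp upstream, had a signal of 2256 and ranked 224, 193 and 124. In replicate 3 the summit at 106 bp thus ranked lower, and that at 307 bp higher, than in the other replicates. Each rank is that of the replicate's nearest summit within 100 bp, so it need not follow the same summit across lists.

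Housekeeping elements were found mostly at the members close to the TSS. A DRE lay within 100 bp of 4.70% of member summits (3.88 to 5.67), against 0.418% in windows 500 bp further upstream and 3.03% of all optimal peaks. It stood at 13.1% of the members within 50 bp of the TSS, 16.2% of those at 51 to 100 bp, 6.64% at 101 to 150 bp and at most 1.38% in any bin beyond. Ohler 1 fell in the same way, from 13.1% within 50 bp and 8.49% at 51 to 100 bp to 0.307% at 251 to 350 bp, and Ohler 7 from 15.4% and 18.5% to 4.29%. Ohler 7 is a longer degenerate motif and is given by its name alone. One-strand promoters with no region also had the DRE mostly near the TSS. There it stood at 2.04% in the last 50 bp and at 0.0935% from 500 to 450 bp before the TSS. The fall with distance is therefore not particular to members. Only 9 members had both a DRE and an Ohler 1.

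The forkhead core was common at every distance. It lay within 100 bp of 39.2% of member summits (37.1 to 41.3), against 31.1% in windows 500 bp further upstream, 23.6% in windows 500 bp downstream and 36.8% of all optimal peaks. By distance its share ran from 34.7% at 51 to 100 bp to 49.1% at 151 to 200 bp. The windows also differ in base composition. Member summits had a mean GC content of 36.9%, and the windows around the summit ranged from 42.4% GC in the first 50 bp to 34.8% at 251 to 350 bp. The part of base composition in the share of the core was not tested. The preferred site GTAAACA was present at 6.69% (5.71 to 7.83), against 5.39% and 4.56% in the windows further upstream and downstream.

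**Figure D4:**
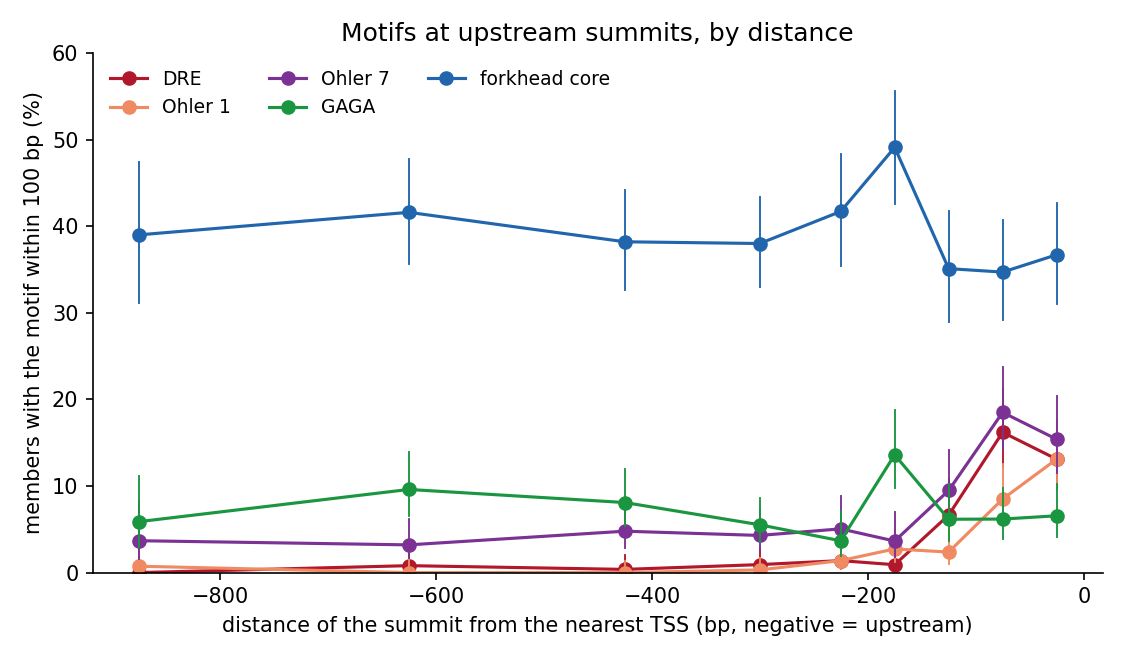
Share of members with a motif within 100 bp of the summit in percent (y axis) against distance from the nearest TSS in bp (x axis), in 9 distance bins, with Wilson 95% intervals. DRE, Ohler 1 and Ohler 7 rise only in the last 150 bp, GAGA peaks at 151 to 200 bp (13.6%), and the forkhead core stays between 34.7% and 49.1%.

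The strongest members had few housekeeping elements. Of the strongest 430 members, 2.79% had a DRE and 0.698% had Ohler 1, against 5.80% and 3.48% of the weakest 431. The forkhead core went the other way, from 42.3% in the strongest 430 to 34.8% in the weakest 431. The word TATAAA, searched anywhere within 100 bp of the summit, did so too, at 37.9% against 26.9%. The preferred site GTAAACA did not, at 4.19% in the strongest 430, 8.60% in the 430 next below them and 7.89% in the weakest 431. GC content was lower in the strongest members, at 34.6% against 39.6%, and its part in these shares was not tested. The same split, at 20% of the peaks from either end, was made in each replicate's own upstream peaks, a comparison chosen after these values were seen. There Ohler 1 stood at 1.12%, 0.476% and 0.468% in the strongest peaks of replicates 1, 2 and 3 and at 5.84%, 3.57% and 3.28% in the weakest. The strongest peaks were lower in 3 of 3 replicates, with a difference of -3.54 percentage points on average (n = 3, exact p = 0.25, adjusted p = 0.25 over the 13 such comparisons). The forkhead core was 41.6%, 41.4% and 43.1% in the strongest and 33.3%, 38.1% and 34.0% in the weakest, higher in 3 of 3 by 6.93 points (exact p = 0.25, adjusted p = 0.25).

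Members with these motifs differed in signal, place and gene. The 101 DRE members had a median signal of 282 and lay a median of 73.0 bp from the TSS, and the 72 Ohler 1 members had 284 and 59.0 bp. The 843 members with a forkhead core had a median signal of 404 at 227 bp, against 364 at 229 bp for all members. The 144 with the preferred site GTAAACA had 361 at 192 bp. Genes of DRE members were short, with a median length of 3287 bp, against 7015 bp over all members.

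GAGA repeats were more frequent at one-strand than at divergent promoters. They lay within 100 bp of 7.25% of member summits (6.23 to 8.43), 7.19% of downstream summits, 2.37% of divergent summits and 4.23% of all optimal peaks. In windows 500 bp further upstream and downstream of the member summits they stood at 4.97% and 7.72%. In the replicates' own lists the shares were 6.47%, 7.13% and 8.10% for upstream peaks and 2.35%, 2.24% and 2.5% for divergent peaks, higher in 3 of 3 replicates by 4.87 points ± 0.735 (SD, n = 3; exact p = 0.25, adjusted p = 0.375). GAGA repeats were sparse right at the summit. The density of GAGA within 25 bp of a summit was 0.687 times that around 400 to 500 bp away, while the same ratio was 17.5 for the DRE, 7 for Ohler 1, 1.49 for the forkhead core and 0.562 for the E-box CACGTG. These ratios do not separate closeness to the summit from closeness to the TSS. The 156 members with GAGA had a median signal of 341, belonged to genes with a median length of 11383 bp, and 51.9% of them lay in introns. Only 2 members had both GAGA and a DRE.

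The share of peaks with a DRE differed between the 3 classes of promoter peaks in the replicates. It stood at 5.35%, 4.23% and 3.65% of upstream peaks in replicates 1, 2 and 3, at 1.87%, 1.31% and 1.69% of downstream peaks, and at 10.9%, 10.9% and 10.3% of divergent peaks. Upstream peaks exceeded downstream ones in 3 of 3 replicates by 2.79 points and were lower than divergent ones in 3 of 3, with a difference of -6.29 points (n = 3 each, exact p = 0.25, adjusted p = 0.375). The classes are set by position, and the DRE also follows position at one-strand promoters with no region. There it stood at 2.04% in the last 50 bp before the TSS and 0.131% from 50 to 100 bp after it. The part of position in these differences was not tested. Ohler 1 was lower at upstream than at divergent peaks in 3 of 3 replicates (3.24% ± 0.632 against 7.22% ± 0.783, SD, n = 3), while against downstream peaks the replicates did not point one way (2.43% ± 1.28, higher in 2 of 3). GC content around the summit was lower at upstream than at downstream peaks in 3 of 3 replicates, with a difference of -3.29 points (37.1% ± 0.450 against 40.3% ± 1.15). It also follows position at one-strand promoters with no region. There it was 37.2% from 150 to 101 bp before the TSS and 45.4% from 100 to 149 bp after it. The classes are set by position, so this comparison cannot separate the peaks from their place. The part of position in the GC difference was not tested.

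Members nearest the TSS ranked higher in replicate 1 than in the other replicates. Of the 226 members within 50 bp that had a region in all 3 full lists, 15 ranked lowest in replicate 1, 119 in replicate 2 and 92 in replicate 3. Their median ranks were 4502, 6170.5 and 5702. Over all 1861 members with a region in every list the numbers were 537, 568 and 756, and from 251 to 500 bp upstream they were 219, 126 and 165 of 510. The DRE members showed this as well, with 4 of 86 lowest in replicate 1, 37 in replicate 2 and 45 in replicate 3. Whether depth or fragment size differed between the libraries was not tested, since the lists give neither.

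Promoters with a member were compared with other one-strand promoters over the 200 bp before the TSS. For genes with several TSSs the promoter was that nearest to the strongest member, or, with no member, the TSS used by most transcripts, so the summit chose the window for part of the member genes. There were 1436 genes with a member and TSSs on 1 strand only, 1548 whose regions lay only below the authors' threshold in the pooled list, and 5348 with no region. GAGA stood at 12.5% of the first (10.9 to 14.3), 8.27% of the second and 3.81% of the last, with 4.96% over the promoters of all 13945 protein-coding genes. In the replicates' own lists GAGA stood at 11.6%, 12.6% and 13.3% of promoters with an upstream peak and at 3.67%, 3.83% and 3.72% of promoters with no region, higher in 3 of 3 by 8.77 points (n = 3, exact p = 0.25, adjusted p = 0.25). Ohler 7 followed the same order (7.03%, 3.04% and 2.94%), as did Ohler 1 (3.62%, 1.87% and 1.29%) and the DRE (6.06%, 4.26% and 3.57%). Over the promoters of all protein-coding genes, divergent ones included, these stood at 5.87%, 3.70% and 7.16%, so Ohler 1 and the DRE were not above that level at promoters with a member. Over genes with exactly 1 TSS, a comparison added after seeing the data, GAGA stood at 8.98% of 757 promoters with a member (7.15 to 11.2), 6.62% of 1087 below the threshold and 3.59% of 4602 with no region. Ohler 7 stood there at 8.59%, 3.31% and 3.00%, Ohler 1 at 3.70%, 2.02% and 1.26%, and the DRE at 7.40%, 4.60% and 3.69%.

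The forkhead core was not more frequent at these promoters than at those with no region. It stood at 30.2% of promoters with a member (27.9 to 32.6), at 29.2% of those below the threshold (within the interval of the former), at 33.4% of those with no region (32.1 to 34.6) and at 35.0% of all promoters. In the replicates it was lower at promoters with an upstream peak in 3 of 3, with a difference of -2.86 points (30.1% ± 0.859 against 33.0% ± 0.430, SD, n = 3; exact p = 0.25, adjusted p = 0.25). Over genes with exactly 1 TSS it was 32.8% with a member (29.5 to 36.2) and 33.2% with no region (31.8 to 34.6). TATAAA in its usual place, from 45 to 16 bp before the TSS, was found at 4.32% of promoters with a member (3.38 to 5.50) and 12.5% of those with no region (11.6 to 13.4). An initiator within 10 bp of the TSS was found at 22.1% (20 to 24.3) and 16.4% (15.4 to 17.4). Over genes with exactly 1 TSS the shares were 5.94% and 13.6% for TATAAA, and 18.6% (16 to 21.6) and 16.2% (15.2 to 17.3) for the initiator.

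The genes themselves also differed. Genes of promoters with a member were a median of 4784 bp long, against 2666 bp below the threshold and 1658 bp with no region, and 47.3%, 29.8% and 13.9% of them had more than 1 TSS. Promoter motifs were not compared within classes of gene length.

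Members lay between genes or in introns. Of the summits, 51.7% were intergenic, 32.4% were in an intron of the same gene, 6.83% in an intron of another gene and 3.86% in a 5' UTR, which an upstream summit can reach from another TSS of its gene. Coding exons held 4 members. Of the 1111 intergenic members, 785 had the 3' end of a gene of the same strand as the next gene upstream, at a median gap of 701 bp. In gaps of 500 bp or less, 12.1% of members had a DRE and 8.36% an Ohler 1, against 3.27% and 1.87% in gaps above 2000 bp. The members in short gaps were also nearer to the TSS, at a median of 80.0 bp against 309 bp.

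The 2151 members had 1642 nearest genes, and 1248 of these genes had 1 member. Of 773 member genes with 2 or more promoters, TSSs within 300 bp of each other counted as 1 promoter, 588 had members at 1 promoter only. Among the 395 genes with exactly 2 promoters, the upstream one alone had a member in 164, the downstream one alone in 173, and both in 58. A member at 1 promoter of such a gene was thus about as frequent at either of them. The rule allows no member with a TSS of the other strand within 1000 bp of its summit. These counts therefore also depend on which promoters could have a member, and do not measure a preference between promoters.

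The genes with most members were long genes with many TSSs. Rtnl1, the reticulon gene that shapes the endoplasmic reticulum, had 6 members at 6 of its 7 TSSs, of which 5 were found in all 3 replicates. The strongest of them, 269 bp upstream of a TSS, had a signal of 3131 and ranked 86, 68 and 83 in replicates 1, 2 and 3, and the others had 163 to 1445. SNF4Agamma, the gamma subunit of the energy sensor AMPK, had 6 members of 192 to 689, 3 of them in all 3 replicates. Ptpmeg2, a protein tyrosine phosphatase gene, had 5 members of 331 to 3196, all found in all 3 replicates. Its strongest ranked 77, 61 and 120. The genes prage and CG43658 had 5 members each, with highest signals of 2314 and 1412.

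Members were then counted over 30 lists of genes. Of all 13945 protein-coding genes 11.8% were the nearest gene of a member, and of the 9521 genes with a one-strand TSS 17.2% were. The rule leaves out genes whose every TSS lies near a TSS of the other strand, so both shares matter for a list. The median signal of a gene's strongest member was 402 over all member genes. Most lists of growth, stress and metabolic genes stood above the first of these shares, and most lists of housekeeping complexes stood near or below it. Where few genes of a list have a one-strand TSS, the second share can stand above its background while the first does not.

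Signalling genes of nutrient sensing often had a member. Of 29 genes of insulin and TOR signalling 9 had a member (31.0%, 17.3 to 49.2), with a median signal of 1042, and all 9 were found in all 3 replicates. REPTOR led it, as given above. Sesn, the stress-induced inhibitor of TOR, had a member of 2704 that ranked 133, 135 and 86. The kinase sgg, the fly glycogen synthase kinase, had 2220.0 and ranked 168, 198 and 298, and Pi3K21B, the adaptor of the insulin-regulated lipid kinase, had 2018 and ranked 169, 366 and 361. None of these 9 genes had a DRE or Ohler 1 at its strongest member, but both were rare there in general. Over all 1642 member genes 88 had a DRE and 63 an Ohler 1 at the strongest member, so the count in 9 genes does not set them apart.

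Both InR and Thor, known foxo targets named here after their values were seen, had a member. InR, the insulin receptor, had a member 99 bp upstream of a TSS with a signal of 919.6 that ranked 585, 1881 and 2502. Thor, the inhibitor of eIF4E, had one at 29 bp with 451 that ranked 2813, 4980 and 3629. Both ranked highest in replicate 1.

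Members were also frequent at metabolic genes. In lipid metabolism 11 of 24 genes had a member (45.8%, 27.9 to 64.9), at a median signal of 494. After Lpin came Hnf4, a nuclear receptor of lipid use (1086, ranks 948, 1021 and 502), and whd, the carnitine palmitoyltransferase of fatty acid oxidation (737, ranks 1999, 1525 and 2241). The desaturase gene Desat1 had 716 and ranked 1488, 1990 and 1969. In carbohydrate metabolism 10 of 26 genes had a member (38.5%, 22.4 to 57.5), at a median signal of 919, and all 10 were found in all 3 replicates. Beside Gapdh2, the glycogen phosphorylase gene Glyp had 2530.1 and ranked 122, 192 and 123. The hexokinase gene Hex-A had 1873 and ranked 236, 448 and 173, and the lactate dehydrogenase gene Ldh had 1550.1 and ranked 453, 515 and 382.

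Of 20 heat shock and chaperone genes 7 had a member (35.0%, 18.1 to 56.7), with a median signal of 756. Beside Hsp27, the small heat shock genes Hsp26 and Hsp22 had 1424 and 756, with ranks of 472, 772 and 504 and of 1912, 1625 and 1555. The cochaperone gene stv had 1122 and ranked 1024, 920 and 650. Of 25 genes of the JNK and p38 pathways and of stress factors 9 had a member (36%, 20.2 to 55.5), led by Atf3, a stress-induced bZIP factor, with 2979 and ranks of 89, 87 and 98. The cell death gene hid had 1540.2 and ranked 693, 463 and 318. In oxidative stress 4 of 19 genes had one, or 28.6% of the 14 with a one-strand TSS. In autophagy 3 of 24 had one, or 37.5% of the 8 with a one-strand TSS, against 17.2% over all such genes. The autophagy genes Atg8a, Atg14 and Pi3K59F had signals of 343, 200.3 and 185, below the median of 402.

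Developmental regulators also had members. Of 48 genes of the JAK-STAT, Notch, Hippo, EGFR and Dpp pathways 17 had a member (35.4%, 23.4 to 49.6), led by the cadherin gene ds (1851, ranks 416, 300 and 217), the EGFR ligand gene spi (1552, ranks 540, 505 and 399) and the EGFR inhibitor gene aos (1304, ranks 905, 740 and 409). The summit assigned to aos lay in an intron of another gene. In the cell cycle list 12 of 31 genes had one (38.7%, 23.7 to 56.2) at a lower median signal of 341, led by CycE, the cyclin of S phase entry, with 876 and ranks of 1859, 1114 and 1070. Of 26 genes of ecdysone and other nuclear receptors 8 had one, led by the juvenile hormone receptor gene gce (1186, ranks 653, 917 and 973). In the forkhead family 4 of 16 had one. The member of fkh had 1915 and ranked 178, 725 and 174, and foxo itself had one of 475 at 243 bp upstream that ranked 2848, 3133 and 3781. Of 20 Polycomb group genes 5 had one, and none of the 8 Hox genes did.

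Ribosomal protein genes had members very near the TSS. Of 88 cytosolic ribosomal protein genes 20 had a member (22.7%, 15.2 to 32.5), which is 20 of the 40 with a one-strand TSS (50%), at a median signal of 371 and a median distance of 43.5 bp, against 210 bp over all member genes. RpL23A led with 1125 and ranked 615, 1716 and 702 in replicates 1, 2 and 3. RpL24 had 723 and ranked 1050, 3361 and 1896, and RpL17 had 703 and ranked 1260, 3153 and 1458. Of the 19 ribosomal members with a region in all 3 lists none ranked lowest in replicate 1, 15 ranked lowest in replicate 2 and 4 in replicate 3. RpS14b has a near-identical neighbouring copy, RpS14a, so its member (458) is uncertain.

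Members at genes of other large complexes were counted over all genes and over those with a one-strand TSS. They were 2 of 75 mitochondrial ribosomal protein genes, 7 of 88 genes of oxidative phosphorylation, 3 of 32 proteasome genes, 1 of 33 aminoacyl-tRNA synthetase genes, 5 of 33 vacuolar ATPase genes and 1 of 17 ESCRT genes. Translation initiation factors gave 3 of 37, with eIF6 and eIF4A (466) among them, and Rab GTPases 7 of 36, led by Rab5, a regulator of early endosomes, with 1519 and ranks of 439, 626 and 411. Of the genes with a one-strand TSS, the share with a member was 31.8% for Rab GTPases, 27.3% for the proteasome and 25% for the vacuolar ATPase, above the 17.2% over all such genes. It was 15.2% for oxidative phosphorylation, 14.3% for translation initiation factors, 12.5% for mitochondrial ribosomal proteins and for ESCRT, and 9.09% for aminoacyl-tRNA synthetases. These shares rest on 8 to 46 genes a list.

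Chemoreceptor and cuticle protein genes rarely had a member. Members stood at 4 of 180 chemoreceptor genes (2.22%, 0.867 to 5.57), although 154 of these have a one-strand TSS, and at 4 of 92 cuticle protein genes (4.35%, 1.70 to 10.7). Tissue markers had a member in 4 of 20 muscle genes, 3 of 20 neuron and glia genes and 3 of 14 fat body genes. Members also stood at 3 of 19 salivary glue and haemocyte genes and 1 of 17 midgut genes. Of their genes with a one-strand TSS, the share was 9.09% for midgut and 15.8% to 23.1% for the other lists. It was 17.2% over all such genes, so these small lists do not set tissue markers apart. The marker genes named next were picked by signal. The neuronal RNA-binding protein gene elav had 2515 and ranked 148, 125 and 194, the glial receptor gene moody had 2614 and ranked 93, 117 and 315, and the muscle gene Msp300 had 2821 and ranked 101, 119 and 77. The summits assigned to elav and to moody each lay in an intron of another gene. Of 18 genes of insulator and promoter factors 4 had a member (44.4% of the 9 with a one-strand TSS), led by nej, the fly CBP, with 834.

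**Figure D5:**
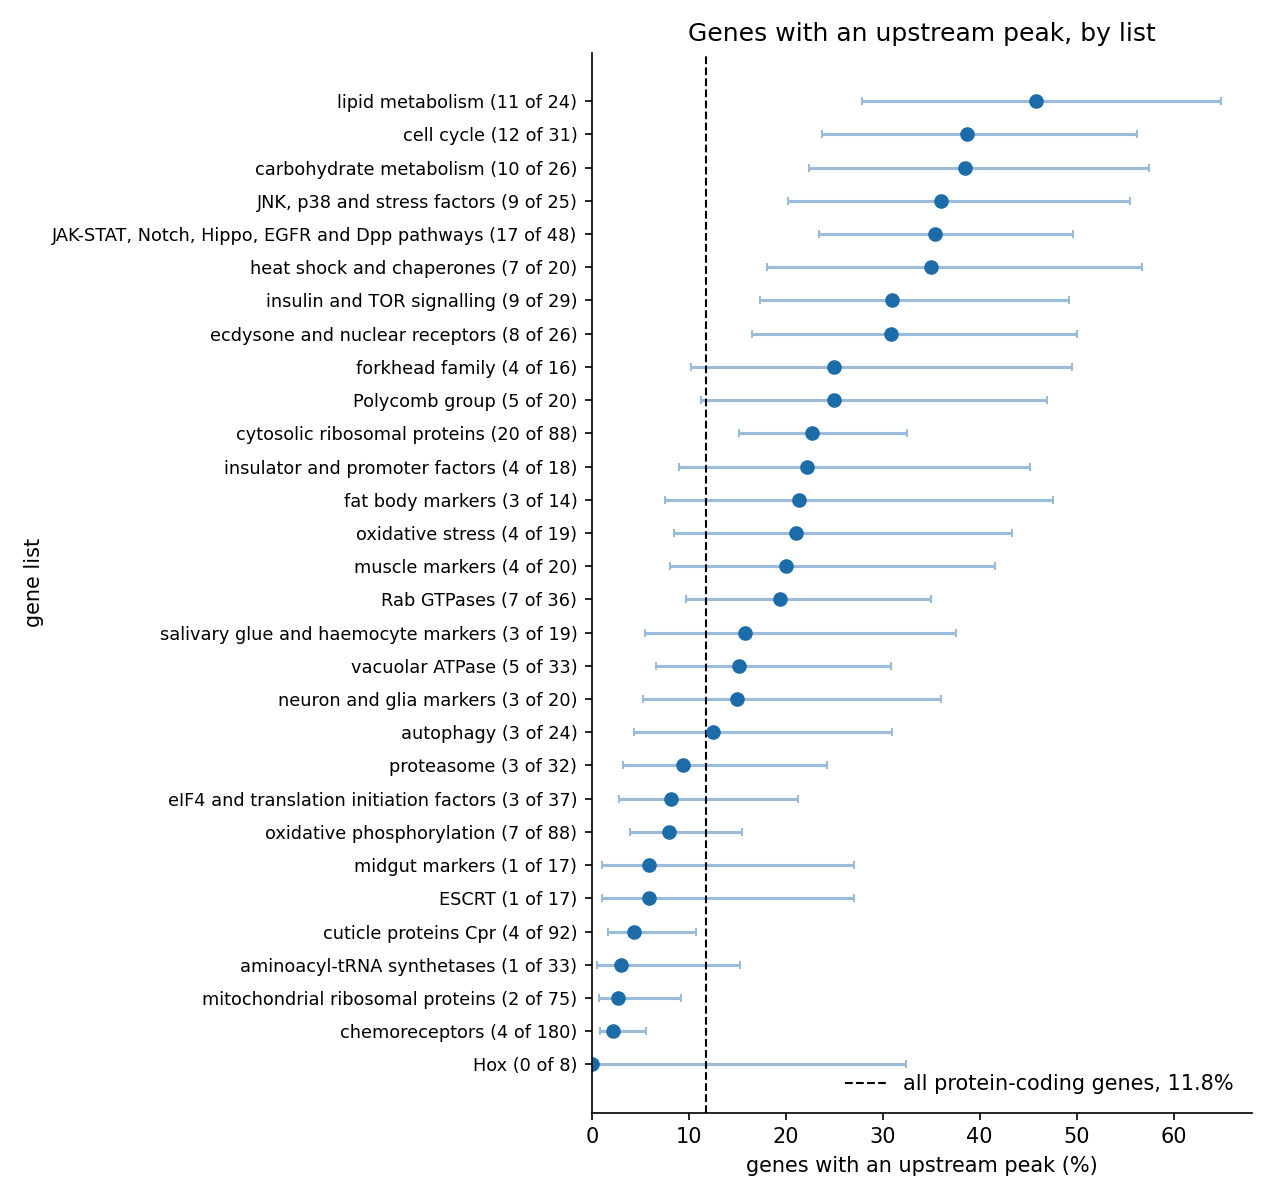
Percent of the genes of each of 30 lists that were the nearest gene of a member (x axis), with Wilson 95% intervals, list by list with its counts (y axis). The dashed line is the share over all protein-coding genes, 11.8%. Lipid metabolism (45.8%), the cell cycle (38.7%) and carbohydrate metabolism (38.5%) are highest, and Hox genes (0 of 8) lowest.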

How the data were processed

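The authors deposited peak lists in narrowPeak format on dm6 and dm3, and the dm6 lists were used. Per the labels and file listings deposited with them, relaxed lists of 30000 peaks and background regions were made from each replicate and from the pooled replicates for the irreproducible discovery rate (IDR) procedure, whose threshold the optimal list passed. The peak caller, the IDR threshold and the normalization of the signal are each not given in the sources used here. Regions were ranked within a list by the authors' deposited signal value. The deposited −log10 q-value was saturated and was not used for ranking. Sequencing depth is unknown, and Wilson 95% intervals on shares cover counting error only.

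Summits (start plus offset) were classed against 19607 distinct TSSs of 13945 protein-coding genes in the Ensembl release 115 annotation of the same assembly, with all transcripts and a window of 1000 bp. Replicates were compared over their 9766 strongest regions, the number of optimal peaks, and summits within 100 bp matched. The 16 motifs were searched on both strands with the centre within 100 bp of the summit, or within the 200 bp before a TSS. Classes were compared over replicates with a two-sided exact sign-flip permutation test, adjusted by Benjamini-Hochberg. The labels call the 3 samples biological replicates, from separate biosamples. Scripts were tested on simulated data and ran in Python 3.11.15 with numpy 2.4.6, pandas 2.3.3, scipy 1.17.1 and matplotlib 3.10.9.

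The members, the gene lists, the motifs and the tests were chosen with earlier results of these data known. The 30 lists hold 1129 genes, of which 6 stand in more than 1 list. Named genes were those at the 25 strongest members found in all 3 replicates, up to 4 per list by signal, and the 5 genes with most members, with exceptions marked. Printed sequences were the strongest intergenic members with each motif in exon-free windows on the arms 2L, 3L, 3R, 4 and X. Alternatives changed the TSS window, the TSS annotation, the match distance, the list length, the motif window and the replicates used.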

Additional observations from a re-analysis of the deposited data

How the results depend on the processing

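No paired analysis was possible because the samples form 1 group. The number of members fell from 2151 to 1220, and of genes with a member from 1642 to 1008, in the 4883 strongest optimal peaks. The share of one-strand summits lying upstream was 70.4%, and became 78.3% with a window of 500 bp, 65.3% with 2000 bp, 66.9% with 1 TSS per gene and 75.8% in the 4883 strongest peaks. The share of members in all 3 replicates (67.4%) was 51.3% for summits within 50 bp, 75.5% within 200 bp, 79.7% for overlapping intervals, 39.1% with lists of 4883 regions, 86.5% with all 30000 regions, and 73.2% to 76.2% without 1 replicate, where fewer lists have to match. With the motif centre within 50 bp or 200 bp, the DRE stood at 3.02% or 6.37% of members, Ohler 1 at 1.81% or 5.11% and the forkhead core at 22.5% or 58.8%. In the 4883 strongest peaks they stood at 3.52%, 2.21% and 42.3%, and the forkhead core was 41.7% in members of all 3 replicates.

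Of 96 recomputed differences between classes over replicates, 89 kept their direction. Median width is not among them, since its difference was 0 and has no direction. The 7 that did not were small in the main comparison, and the cause was not tested. Against downstream peaks, Ohler 1 moved from 0.805 to -0.0936 points with a window of 500 bp, and GAGA from -0.114 to 0.368 with 2000 bp, to 1.40 with lists of 4883 regions, and ranged from -0.629 to 0.425 without 1 replicate. Against divergent peaks, recurrence in both other replicates moved from -0.0213 to 0.964 with 2000 bp and ranged from -0.882 to 1.01 without 1 replicate, and GC content from 0.779 to -0.109 with 2000 bp. Of the list counts 23 moved by more than 1.5 times. Ribosomal protein genes with a member rose from 20 to 32 with a window of 500 bp and fell to 11 in the 4883 strongest peaks, where the cell cycle list had 7, ecdysone and nuclear receptors 5, Rab GTPases 3 and oxidative phosphorylation 1.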

Other observations

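The share of genes with a member was similar on the large autosomal arms and higher on the X. On the X, 326 of 1551 genes with a one-strand TSS had a member (21.0%, 19.1 to 23.1), against 16.2% to 17.2% on 2L, 2R, 3L and 3R and 7 of 65 on chromosome 4 (10.8%, 5.32 to 20.6). The X held 20%, 22.0% and 18.6% of the upstream peaks in the lists of replicates 1, 2 and 3. The larvae were pooled males and females, and the part that sex played in the share on the X was not tested. The median signal of members on the X was 337, the lowest of all arms, where it ranged up to 436 on chromosome 4.

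Base composition changed along the promoters with a member. Mean GC content was 35.5% in the 50 bp that start 250 bp before the TSS, 38.4% from 150 to 101 bp and 47.9% in the last 50 bp. GAGA repeats in these promoters were most frequent from 100 to 50 bp before the TSS, at 6.69% of 1436 promoters, and the DRE in the last 50 bp, at 3.69%. At promoters with no region GAGA stood at 1.59% of 5348 from 150 to 100 bp and nearly as high, at 1.40%, from 100 to 50 bp. The DRE was again most frequent in the last 50 bp there, at 2.04%.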
